A study of Rattus norvegicus with 12 samples.

Results

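The pyruvate dehydrogenase kinases Pdk1, Pdk2, Pdk3 and Pdk4 and the pyruvate dehydrogenase phosphatases Pdp1 and Pdp2 were followed in 2 organs, liver and renal cortex, of rats dosed with trichloroethylene (TCE), a chlorinated solvent. Their members were the probe sets whose platform annotation named 1 of these 6 symbols and no other gene, which gave 11 of the 31099 probe sets on the array. Pdp1 had 1 probe set and each of the other 5 genes had 2, called here the brighter and the dimmer by their mean over the 12 arrays. These genes were chosen on the levels and differences measured between the groups of these same arrays. Their differences between groups are therefore given as a description, with the standard error (SE) of the fit and no p-value. Nothing is read from the calls counted among them.

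Male Wistar-derived rats of 7 to 9 weeks, whose strain label also names F-344, received TCE by mouth in corn oil at 16 mg/kg/day for 3 days, or corn oil alone at 5 ml/kg. Both tissues were taken 24 h after the last dose from 6 rats, 3 per treatment, and about 50 mg of each was used for RNA on Affymetrix rat expression arrays. The 4 groups were therefore liver of TCE rats, liver of control rats, renal cortex (called kidney below) of TCE rats and kidney of control rats, with 3 arrays each. The study's title concerns hepatic vitamin B12-dependent methionine salvage, and the kinases and phosphatases belong to no aim it states.

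The pyruvate dehydrogenase complex turns pyruvate into acetyl-CoA in the mitochondrion and so commits carbohydrate carbon to oxidation or to fat synthesis. The kinases phosphorylate its E1 alpha subunit and switch it off, and the phosphatases remove these phosphates and switch it on again. In liver and other tissues, Pdk4 and Pdk2 are known to rise with fasting and fall with feeding and insulin, while Pdk1 is known as a target of the hypoxia-inducible factor.

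The 4 groups showed 3 kinds of level pattern among these genes. Pdk1 and Pdk4 were high in liver, Pdk3 was high in kidney and near the bottom of the scale in liver, and the group means of Pdk2, Pdp1 and Pdp2 spanned at most 1.08 log2 units. In the livers of TCE rats both probe sets of Pdk1, Pdk2 and Pdk4 lay below those of every control liver, whereas Pdk3, Pdp1 and Pdp2 overlapped. In kidney the brighter Pdk1 set lay above every control kidney, opposite in direction to liver.

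The proximal promoters of Pdk1, Pdk2 and Pdk4 are shown because these are the 3 genes that were lower in TCE livers. The sequences are RefSeq's on GRCr8, from 250 bases before to 50 bases after the annotated start, written 5′ to 3′ on the gene's strand; 4 of the 6 genes had an entry. Capitals mark matches on either strand to ACGTG, the core of the hypoxia response element, to the GC box GGGCGG and to the CCAAT box.
Pdk1 (chr3:77113264-77113563, plus strand): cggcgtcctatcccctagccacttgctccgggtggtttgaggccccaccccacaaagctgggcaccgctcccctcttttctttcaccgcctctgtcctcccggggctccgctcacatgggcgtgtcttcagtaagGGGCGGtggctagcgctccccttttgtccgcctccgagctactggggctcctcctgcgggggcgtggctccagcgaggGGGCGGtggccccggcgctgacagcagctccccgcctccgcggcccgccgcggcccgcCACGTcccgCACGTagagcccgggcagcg
Pdk2 (chr10:80483863-80484162, minus strand): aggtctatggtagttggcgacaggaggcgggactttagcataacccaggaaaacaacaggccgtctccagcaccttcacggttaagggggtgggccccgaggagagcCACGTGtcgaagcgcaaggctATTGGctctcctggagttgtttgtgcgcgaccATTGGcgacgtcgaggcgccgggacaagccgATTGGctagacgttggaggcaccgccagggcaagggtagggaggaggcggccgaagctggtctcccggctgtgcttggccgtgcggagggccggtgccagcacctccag
Pdk4 (chr4:34568280-34568579, minus strand): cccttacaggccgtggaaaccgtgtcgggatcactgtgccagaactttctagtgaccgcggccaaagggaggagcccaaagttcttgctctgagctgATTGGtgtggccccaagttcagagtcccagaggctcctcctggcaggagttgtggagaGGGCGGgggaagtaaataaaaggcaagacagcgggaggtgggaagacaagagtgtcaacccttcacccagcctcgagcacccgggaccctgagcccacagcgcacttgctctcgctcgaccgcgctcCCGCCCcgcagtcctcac

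The 3 windows shared a high GC content, at 72.0% for Pdk1, 64.0% for Pdk2 and 61.3% for Pdk4, against a median of 51.7% over all 33469 promoters of the table. They held 30, 24 and 16 CpG dinucleotides, where the median promoter held 7. In Pdk3, whose window is chrX:62547322-62547621 on the minus strand, the values were 69.3% GC and 34 CpG. The 4 promoters are thus of the CpG-rich kind, in the genes that were lower in TCE livers and in Pdk3 alike.

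Motif matches differed among the 4. ACGTG was found in 19.3% of all promoters, and here 2 times in Pdk1, both downstream of the start (first bases at 22 and 31), 2 times in Pdk2, 1 time in Pdk3 and not in the Pdk4 window. Both Pdk2 matches lie within a single palindromic E-box, CACGTG, a motif found in 6.42% of promoters. GGGCGG, present in 33.1% of promoters, occurred 2 times each in Pdk1, Pdk3 and Pdk4, and CCAAT, present in 37.5%, occurred 3 times in Pdk2 and 1 time each in Pdk3 and Pdk4. Searched on both strands, the D-box letters TTATGTAA and TTACGTAA, the PPAR element (AGGTCA repeated directly with 1 base between), its half-site AGGTCA, the forkhead motif GTAAACA, the glucocorticoid element (AGAACA and TGTTCT with 3 bases between) and the TATA box TATAAA had no match in these 4 windows. Their shares of all promoters were 0.893%, 0.12%, 0.0538%, 16.2%, 3.78%, 0.0149% and 14.2%, in that order, and a match or its absence describes these letters only.

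The labelled tissues were checked against their defining genes. All 6 hepatocyte markers, among them Alb (albumin), were well expressed in the livers and all 6 proximal tubule markers, among them Slc34a1 and Lrp2, in the kidneys. The deposited values are log2 intensities, with a lowest value of 2.17 shared by many probe sets and a highest of 16.5. Arrays of the same group correlated at r between 0.993 and 0.997, arrays of different tissues at r between 0.850 and 0.863 (across probe sets, which are not replicates), and no 2 arrays held identical values. Samples are pieces of whole tissue, so fewer cells of a type and less RNA per cell cannot be told apart.

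**Figure D1:**
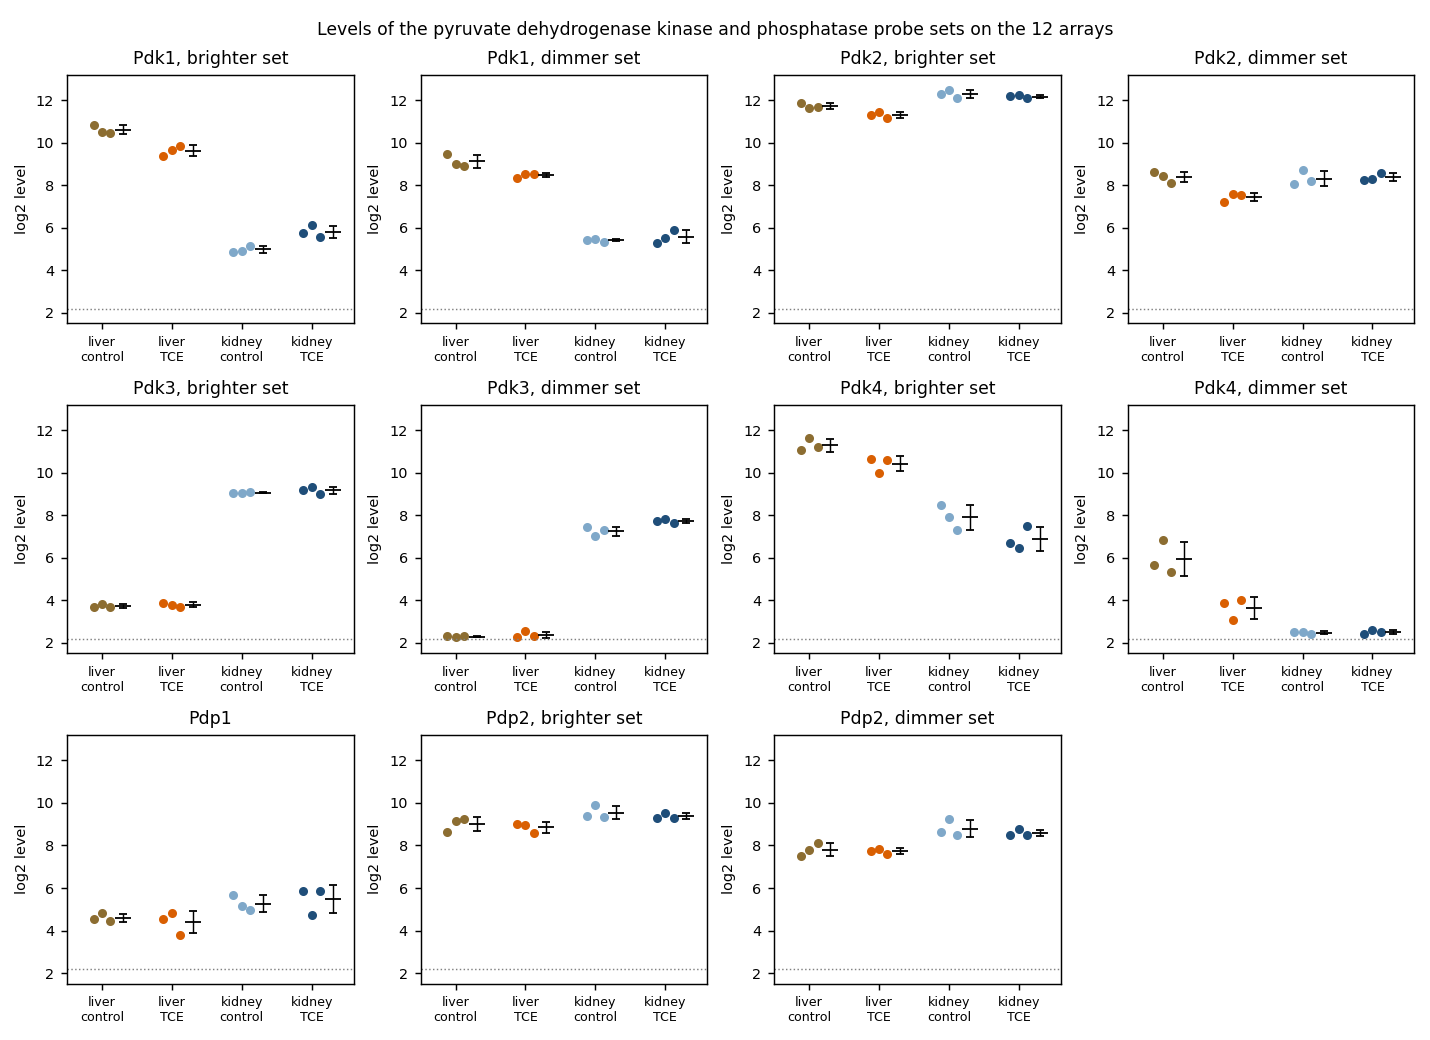
Level (deposited log2 intensity, vertical axes on 1 common scale) of each of the 11 probe sets on the 12 arrays, by group. Points are single arrays, bars give the mean ± SD (n = 3), and the dotted line is the lowest value of the whole table, 2.17. Both sets of Pdk1, Pdk2 and Pdk4 are lower in TCE livers than in control livers with no overlap, and the Pdk3 sets sit near the bottom of the scale in both liver groups.

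Pdk1 encodes a kinase of the complex that is widely studied in hypoxic cells. Its brighter probe set measured 10.84, 10.51 and 10.44 in the control livers and 9.36, 9.67 and 9.84 in the TCE livers. All 3 TCE livers lay below all 3 control livers. The difference was -0.97 ± 0.17 (SE, n = 3 each), 1.96-fold lower with TCE.

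The kidneys gave the opposite order for the same probe set. Control kidneys measured 4.87, 4.91 and 5.15 and TCE kidneys 5.72, 6.11 and 5.57, again with no overlap, a difference of 0.82 ± 0.16, or 1.77-fold higher. The group order was control liver, TCE liver, TCE kidney and control kidney, and every pair of neighbours in it was apart, so the TCE groups lay between the control groups. The liver effect minus the kidney effect was -1.79 ± 0.25 log2 units.

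The dimmer Pdk1 set showed the liver difference and not the kidney one. It measured 9.44, 9.00 and 8.90 in control livers and 8.34, 8.51 and 8.54 in TCE livers, a difference of -0.65 ± 0.16 with no overlap. In kidney it measured 5.43, 5.47 and 5.34 without TCE and 5.28, 5.53 and 5.91 with it, a difference of 0.16 ± 0.17, in which the groups overlapped. The 2 probe sets of Pdk1 thus gave the same direction in liver and different sizes in kidney.

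Pdk2 encodes the most widely expressed kinase, held to be the main one in the fed liver. Its dimmer set measured 8.61, 8.42 and 8.12 in control livers and 7.21, 7.59 and 7.53 in TCE livers, a difference of -0.94 ± 0.17 or 1.91-fold lower. Its brighter set measured 11.87, 11.63 and 11.68 against 11.28, 11.44 and 11.14, a difference of -0.44 ± 0.11 or 1.35-fold lower. The groups were apart in both.

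In kidney neither Pdk2 set separated the groups. The brighter set measured 12.30, 12.47 and 12.09 in control kidneys and 12.19, 12.22 and 12.08 in TCE kidneys (difference -0.12 ± 0.11), and the dimmer set 8.06, 8.70 and 8.17 against 8.22, 8.31 and 8.58 (difference 0.06 ± 0.20). In the dimmer set the TCE livers alone stood below the other 3 groups, which overlapped with their neighbours. The liver effect minus the kidney effect was -0.998 ± 0.27 in the dimmer set and -0.32 ± 0.17 in the brighter.

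Pdk4 is the starvation-induced kinase, and its dimmer probe set had the largest liver difference of the member sets. This set measured 5.64, 6.83 and 5.32 in control livers and 3.88, 3.06 and 4.00 in TCE livers. The difference was -2.28 ± 0.48, a 4.87-fold lower value, at the 99.9th percentile of the absolute differences over all probe sets tested. The brighter set measured 11.05, 11.62 and 11.19 against 10.66, 10.01 and 10.59, a difference of -0.86 ± 0.24 or 1.82-fold lower. The groups were apart in both sets, but the sizes were far from equal, and in both sets control liver 2 was the highest and TCE liver 2 the lowest array of its group.

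In kidney the brighter Pdk4 set measured 8.48, 7.92 and 7.29 without TCE and 6.67, 6.46 and 7.51 with it. The difference of -1.02 ± 0.41, 2.02-fold lower, was as large as that in liver, but TCE kidney 3 lay above control kidney 3, so the groups overlapped. The dimmer set was near the bottom of the scale in all 6 kidneys (2.42 to 2.60), where a change could hardly be seen. The liver effect minus the kidney effect was 0.15 ± 0.49 in the brighter set and -2.32 ± 0.50 in the dimmer, which could show no lower value in kidney.

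Pdk3, the remaining kinase, showed no liver level that could be followed. Its brighter set measured 3.67, 3.82 and 3.67 in control livers and 3.89, 3.80 and 3.67 in TCE livers, with its own lowest value, 3.67, repeated on 3 of these 6 arrays. Its dimmer set measured 2.27 to 2.55 over the 6 livers, below the filter on dim probe sets there, and was not tested in liver. The liver differences were 0.07 ± 0.09 and 0.09.

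In kidney Pdk3 was well measured. The brighter set measured 9.04, 9.07 and 9.10 in controls and 9.19, 9.35 and 9.00 with TCE, a difference of 0.11 ± 0.10 with overlap. The dimmer set measured 7.43, 7.01 and 7.30 against 7.72, 7.81 and 7.65, a difference of 0.48 ± 0.12 or 1.39-fold higher with no overlap. Only the dimmer of the 2 sets separated TCE from control kidneys.

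The phosphatases overlapped between TCE and control in both tissues. Pdp1, the calcium-activated phosphatase, measured 4.54, 4.82 and 4.45 in control livers and 4.56, 4.81 and 3.81 in TCE livers, and the difference was -0.21 ± 0.28. In kidney it measured 5.69, 5.16 and 4.96 against 5.87, 4.71 and 5.85, a difference of 0.21 ± 0.38. TCE liver 3 and TCE kidney 2 were low within their groups, which gave Pdp1 a wide spread.

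Pdp2, the insulin-responsive phosphatase, measured 8.62, 9.16 and 9.26 in control livers and 9.02, 8.97 and 8.57 in TCE livers with its brighter set. The difference was -0.16 ± 0.22, and that of the dimmer set -0.07 ± 0.18. In kidney the brighter set measured 9.41, 9.90 and 9.33 against 9.30, 9.53 and 9.31, with differences of -0.17 ± 0.17 and -0.20 ± 0.22 in the 2 sets. The dimmer set spanned 7.50 to 8.13 over the livers and 8.48 to 9.24 over the kidneys, and control kidney 2 was highest in both sets.

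**Figure D2:**
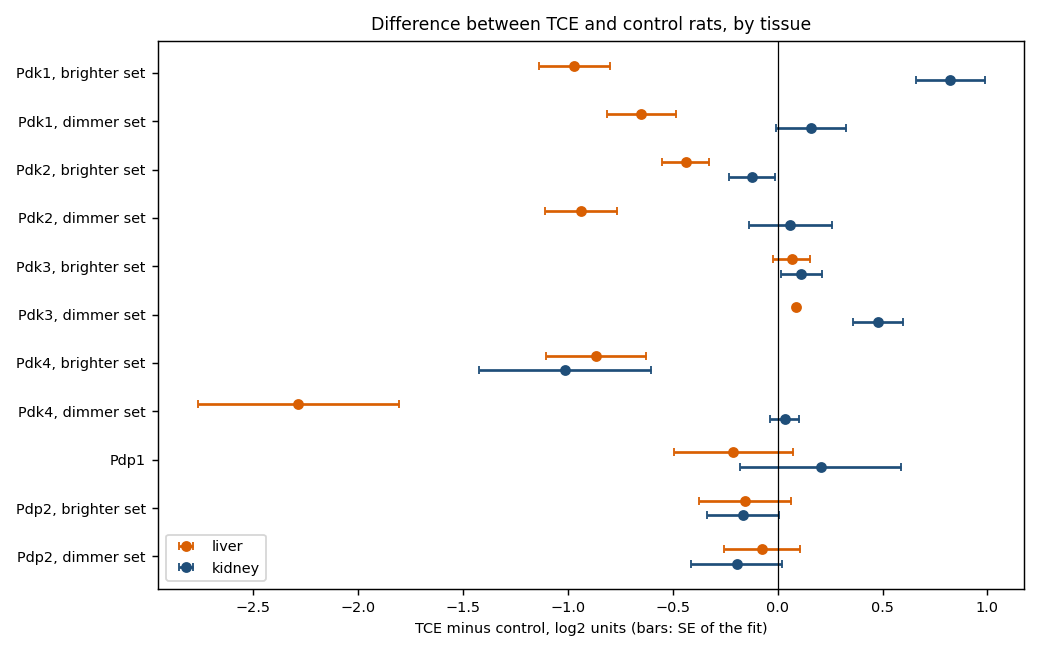
TCE minus control difference (horizontal axis, log2 units) of each probe set in liver and in kidney, with bars for the SE of the limma fit (3 arrays per group); the dimmer Pdk3 set has no bar in liver, where it was too dim to be tested. In liver the Pdk1, Pdk2 and Pdk4 sets lie between -0.44 and -2.28, and in kidney the brighter Pdk1 set lies at 0.82 and the brighter Pdk4 set at -1.02.

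Across the array, no treatment comparison within 1 tissue passed the test. limma with Benjamini-Hochberg adjustment over 18625 probe sets called 0 of the 10 members tested in liver and 0 of 11 in kidney at an adjusted p under 0.05, where 0% of all probe sets were called in either. At an unadjusted p under 0.05 there were 6 members in liver, against 13.8% of all probe sets, and 2 in kidney, against 14.5%. Groups did not overlap for 6 of 10 members in liver, against 19.2% of all probe sets, and all 6 were lower, against 8.79%. In kidney they did not overlap for 2 of 11, against 19.5%. In liver 9 of 10 members were lower, with a median of -0.54 where that of all probe sets was 0.02; in kidney 4 of 11 were lower, with a median of 0.06. Since these contrasts helped to choose the genes, nothing is read from these counts.

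For the difference between the tissues in the TCE effect, 1 of 11 members was called, the brighter Pdk1 set, where 198 probe sets or 1.06% of all were called (limma, all 12 arrays). Since Pdk1 was picked with this contrast known, nothing is read from the call of this set. Without control kidney 1 the same set gave -1.74 ± 0.27 and was no longer called. With the Gapdh gap of each array as a covariate, a sign of RNA quality, it gave -1.77 ± 0.54, of the same size but not called, while the dimmer Pdk1 set went to -0.32 ± 0.50 and the dimmer Pdk2 set to -0.18 ± 0.50. At an unadjusted p under 0.05 there were 5 members, against 17.7% of all. The liver and kidney differences stand side by side for each gene above, and only for Pdk1 did they point in opposite directions with no overlap in either tissue.

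The Gapdh sign of RNA quality moved with treatment in liver. The gap between the 3′ and 5′ control probe sets of Gapdh, which widens as RNA breaks down, was 1.49 ± 0.254 log2 units in TCE livers (SD, n = 3, range 1.21 to 1.70) and 0.814 ± 0.0398 in control livers (0.782 to 0.859). In kidney it was smaller with TCE, at 0.655 ± 0.189 against 0.971 ± 0.110, with overlapping ranges. The same gap of beta-actin ranged from 5.09 to 5.67 in TCE livers and from 4.31 to 5.24 in control livers, with overlap. In kidney the beta-actin gap was 4.20 to 4.36 with TCE and 4.40 to 4.56 without, with no overlap. With the gap as a covariate the liver differences were -0.32 ± 0.32 and -0.33 ± 0.42 for Pdk1, -0.67 ± 0.28 and -0.51 ± 0.41 for Pdk2 and -0.72 ± 0.66 and -1.66 ± 1.28 for Pdk4 (brighter set first), and the kidney difference of the brighter Pdk1 set was 1.23 ± 0.16. The phosphatases moved further down, Pdp1 from -0.21 to -1.33 ± 0.51 and Pdp2 from -0.16 and -0.07 to -0.90 ± 0.46 and -0.48 ± 0.45, and the brighter Pdk3 set turned from 0.07 to -0.21 ± 0.19. Under this covariate the Pdk1, Pdk2 and Pdk4 differences were smaller than that of Pdp1, except in the dimmer Pdk4 set. In liver the Pdk1, Pdk2 and Pdk4 values kept their sign, with wider errors. There the ranges of the Gapdh gap do not overlap between TCE and control. In kidney the dimmer Pdk1 set turned from 0.16 to -0.009 ± 0.28 and the dimmer Pdk2 set from 0.06 to -0.29 ± 0.28. The other Pdk1, Pdk2 and Pdk4 sets kept their sign in kidney.

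Markers of other cells moved too. In kidney, 4 of 4 hepatocyte markers tested were lower with TCE, with a median of -1.59, and their summed linear level was 1061, 7592 and 286 in control kidneys 1, 2 and 3 and 2116, 68.5 and 113 in TCE kidneys, against 227819 to 241664 in livers. Pdk1 and Pdk4 measured higher in liver than in kidney, as these markers did, and in TCE kidneys the brighter Pdk4 set was lower and the brighter Pdk1 set higher. Without control kidney 2, the one with the highest sum, the difference was -1.01 in the brighter Pdk4 set and 0.79 in the brighter Pdk1 set. With each kidney array left out in turn, the differences ranged from -1.33 to -0.72 and from 0.67 to 0.94. In liver, 3 of 3 erythroid markers tested were lower with TCE (median -1.06; sums 10953 to 16476 against 19998 to 25662). Of the fibroblast and smooth muscle markers, 4 of 5 were higher in TCE livers (median 0.33; sums 4356 to 5983 against 4102 to 4301, with no overlap). All 4 endothelial markers tested were higher there too (median 0.20; sums 2838 to 3536 against 2634 to 3474). The part of these cell markers in the liver and kidney differences was not tested.

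Muscle and fat, known for high Pdk4, can lie beside both organs. All 6 striated muscle markers, Ckm and Mb among them, were at the lowest value of the table in every group. Of 5 adipocyte markers Lep was at the lowest value in all groups, and Plin1 had means of 2.18 and 2.19 in TCE and control kidneys. In liver both adipocyte markers tested, Cidec and Fabp4, were lower with TCE (median -0.70), and the summed level, most of it Cidec, was 1417 to 1842 in TCE livers and 1553 to 2128 in controls. In kidney these sums were 766 to 928 with TCE and 802 to 1162 without, so both pairs of ranges overlapped. The part of these markers in the Pdk4 difference was not tested.

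Between the tissues, the kinases split in control rats. The brighter Pdk1 set was 5.62 ± 0.14 log2 units higher in control liver than in control kidney, 49.1-fold, and the dimmer 3.70 ± 0.16 or 13.0-fold. Pdk4 was 3.39 ± 0.33 higher in liver in its brighter set, 10.5-fold, and 3.45 ± 0.40 in its dimmer, where the kidneys were near the bottom of the scale. Pdk3 was far lower in liver, with differences of -5.35 ± 0.07 and -4.95 ± 0.12, or 40.7-fold and 30.9-fold, and since its liver values lie near the bottom the ratio of the measured values may understate the contrast.

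The other members differed less between the tissues. Pdk2 differed by -0.56 ± 0.13 (liver minus kidney) in its brighter set and 0.07 ± 0.22 in its dimmer. Pdp1 differed by -0.67 ± 0.22, with no overlap of the groups. Pdp2 differed by -0.54 ± 0.23 in its brighter set, which was not called, and by -0.99 ± 0.26 in its dimmer. Both phosphatases thus measured higher in kidney, by amounts that depended on the scaling. Median levels of the arrays differ between the tissues (3.50 to 3.53 in livers, 3.87 to 3.95 in kidneys). Centring each array on its median moved the brighter Pdk1 difference to 6.02, the brighter Pdk2 one to -0.16 and the Pdp1 one to -0.26. The Pdp2 differences moved to -0.13 in the brighter set and -0.58 in the dimmer. Every direction was kept.

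TCE rats gave the same picture with smaller Pdk1 and larger Pdk2 contrasts. The brighter Pdk1 set was 3.82 ± 0.19 higher in liver, 14.2-fold where control rats showed 49.1-fold, and the dimmer 2.89 ± 0.17. Pdk2 was lower in liver in both sets, at -0.88 ± 0.10 and -0.93 ± 0.15. Pdk4 was 3.54 ± 0.33 higher in its brighter set and 1.13 ± 0.26 in its dimmer, and Pdk3 stayed at -5.39 ± 0.12 and -5.34 ± 0.10. Pdp1 differed by -1.08 ± 0.42, with overlap, and Pdp2 by -0.53 ± 0.15 and -0.86 ± 0.11.

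**Figure D3:**
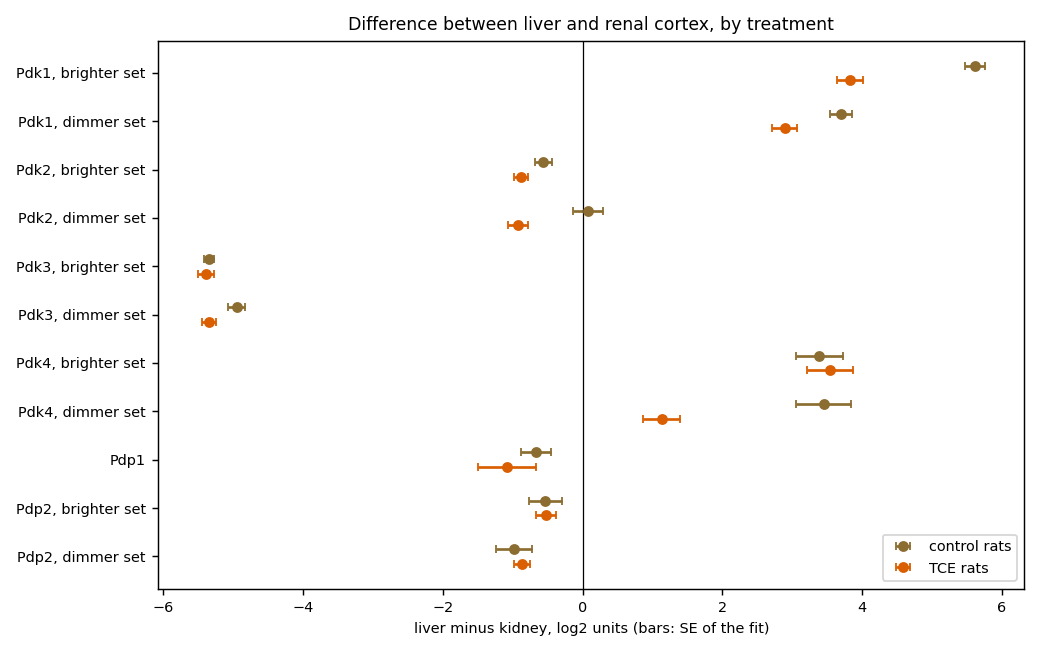
Liver minus kidney difference (horizontal axis, log2 units) of each probe set in control rats and in TCE rats, with bars for the SE of the limma fit (3 arrays per group). Pdk1 and Pdk4 lie to the right, Pdk3 to the far left, and the brighter Pdk1 set moves from 5.62 in control rats to 3.82 in TCE rats.

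Such tissue differences were common on this array. limma called 9 of 11 members in control rats, where 61.8% of all probe sets were called, and 10 of 11 in TCE rats, where 61.1% were. Groups did not overlap for 10 of 11 in control rats (71.2% of all) and 10 of 11 in TCE rats (70.4%). The direction of such calls depended on scaling: in control rats 4983 were higher and 6531 lower in liver, against 9130 and 4526 after median centring, and in TCE rats 5012 and 6370, against 9047 and 4548.

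The profiles most like those of the 2 members with the widest range of group means, Pdk1 (5.62) and Pdk3 (5.46), were sought over the 12 arrays among 10646 other genes. Likeness was the root mean square difference between profiles, each centred on its own mean. For Pdk1 the nearest were Rhobtb3 at 0.304 log2 units, Omd at 0.332, LOC100909782 at 0.420 and Sema4g at 0.446. For Pdk3 they were Slc6a20a at 0.100, Slc13a2 at 0.130, Slc6a17 at 0.142 and Pcdh9 at 0.157, of which the first 3 belong to solute carrier families.

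Rhobtb3, Omd and Sema4g shared with Pdk1 the higher kidney mean in TCE rats. They were picked for likeness over these same arrays, so the shared direction is a description. Rhobtb3 measured 4.75 against 4.22 in kidney (TCE mean against control mean), and 8.99 against 9.31 in liver. Omd measured 4.19 against 3.65 in kidney and 8.41 against 9.07 in liver, and Sema4g 4.68 against 4.33 and 9.37 against 9.55. LOC100909782 did not show this higher kidney mean, at 2.62 against 2.61, near the bottom of the scale in both kidney groups.

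**Figure D4:**
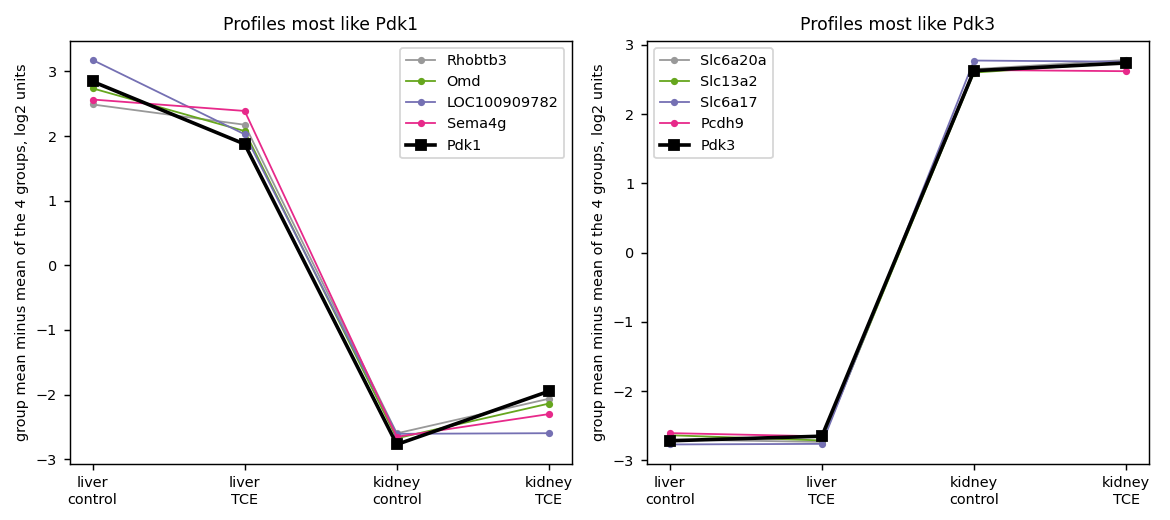
Group means (vertical axes, log2 units, each profile minus the mean of its 4 group means) of Pdk1 and Pdk3 in black and of the 4 genes whose profiles over the 12 arrays were nearest to each. Rhobtb3, Omd and Sema4g follow Pdk1 upward from control to TCE kidney, and the 4 neighbours of Pdk3 are nearly flat within each tissue as it is. In liver Pdk3, Slc6a20a, Slc6a17 and Pcdh9 lie near the bottom of the scale, where a lower value could hardly be seen.

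Dld, the E3 subunit that the pyruvate dehydrogenase complex shares with other dehydrogenases, showed opposite differences in the 2 tissues. It measured 11.55, 11.30 and 11.51 in control livers and 10.95, 10.89 and 11.04 in TCE livers, and 11.46, 11.57 and 11.53 in control kidneys and 11.94, 11.71 and 11.95 in TCE kidneys. Neither pair of groups overlapped. The differences were -0.49 ± 0.09 in liver (limma, adjusted p = 0.157) and 0.34 ± 0.09 in kidney (adjusted p = 0.241), and their difference of -0.84 ± 0.14 passed the test (adjusted p = 0.0275).

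Leaving out 1 array could end this call. It was lost, with adjusted p between 0.0614 and 0.0746 by limma, without TCE kidney 1 or 3, TCE liver 1 or 2, control kidney 1 or 3, or control liver 3, each left out alone, and the value then lay between -0.79 and -0.84. With the Gapdh gap as a covariate it was -0.45 (limma, adjusted p = 0.944).

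Of the 6 genes listed for the complex itself, 5 were on the array under 1 name and 4 were bright enough to be tested. None was called in liver or in kidney, and 1 was called in each at an unadjusted p under 0.05. Pdha1, the E1 alpha subunit that the kinases phosphorylate, differed by -0.14 ± 0.10 in liver (limma, adjusted p = 0.576) and by -0.08 ± 0.06 in kidney (adjusted p = 0.587). Its second probe set gave -0.85 and 0.53, so the 2 sets disagreed in size in liver and in direction in kidney. Their differences of effects were -0.06, not called, and -1.38, called (limma, adjusted p under 0.05). Pdhb, the E1 beta subunit, differed by -0.25 ± 0.12 and 0.04 ± 0.06, Pdhx, the E3-binding protein, by 0.10 and 0.02, and Pdha2, the testis form, was at the bottom of the scale. The list's median was -0.20 in liver and 0.03 in kidney.

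Pdha1 was lower in liver than in kidney, and for the other subunits this depended on the scaling. In control rats 3 of 4 were called lower, Pdha1 at -2.19 ± 0.10 (limma, adjusted p = 1.43e-05), Pdhx at -0.52 (adjusted p = 0.00361) and Pdhb at -0.35 (adjusted p = 0.0148). In TCE rats the 3 called lower were Pdha1 at -2.26, Dld at -0.90 and Pdhb at -0.64. Only the Pdha1 calls, and that of Dld in TCE rats, held under median centring: Pdhx was then at -0.11 and Pdhb at 0.05 in control rats, a turned sign, Pdhb was at -0.26 in TCE rats, and none of these 3 was called. Dld in control rats went from -0.06, not called, to 0.34, called.

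The branched-chain 2-oxoacid dehydrogenase has a kinase and a phosphatase of the same design, Bckdk and Ppm1k, and served as the related system. In liver 0 of its 5 genes were called and 1 passed at an unadjusted p under 0.05, Bckdk at -0.22 ± 0.09 (limma, adjusted p = 0.361). The others were Dbt at -0.22, Ppm1k at -0.21, Bckdha at 0.17 and Bckdhb at -0.07. In kidney 0 of 5 were called or passed unadjusted, and for the difference between tissues in the TCE effect likewise 0 of 5. The list's median was -0.21 in liver and -0.04 in kidney.

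Between the tissues this related kinase and phosphatase did differ. In control rats Ppm1k was lower in liver at -2.43 ± 0.13 (limma, adjusted p = 3.54e-05), Bckdk at -1.40 ± 0.10 (adjusted p = 8.42e-05) and the E1 alpha subunit Bckdha at -0.37 ± 0.07 (adjusted p = 0.00530). In TCE rats 4 of 5 were called lower, Ppm1k at -2.73, Bckdk at -1.52, Dbt at -0.56 and Bckdhb at -0.28. Under median centring Ppm1k and Bckdk kept their calls, while Bckdha in control rats (0.04) and Dbt (-0.18) and Bckdhb (0.10) in TCE rats did not. Ppm1k's other probe sets gave -0.58 and -1.10 in control rats, the same direction at smaller size.

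Of 16 genes that supply or use pyruvate, 14 were tested, and Me1 was the one called for a tissue difference in the TCE effect. Me1 encodes cytosolic malic enzyme, which makes pyruvate and NADPH. It measured 11.36, 10.94 and 11.26 in control livers and 10.01, 10.06 and 9.83 in TCE livers, and 12.22, 12.27 and 12.34 against 12.17, 12.31 and 12.22 in kidney. TCE livers lay well below control livers and the kidneys overlapped. The liver difference was -1.22 ± 0.14 (limma, adjusted p = 0.101) and the liver effect minus the kidney effect -1.18 ± 0.16 (adjusted p = 0.0135), with an adjusted p of 0.0503 when control kidney 1 was left out.

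The rest of this list was not called within a tissue. In liver 0 of 14 were called, 4 at an unadjusted p under 0.05, and 10 of 14 were lower with a median of -0.14. The lowest p after Me1 belonged to Slc25a1, the citrate carrier, at -0.48 ± 0.08 (limma, adjusted p = 0.127), and Pklr, the liver and kidney pyruvate kinase, at -0.79 ± 0.17 (adjusted p = 0.184). In kidney 0 of 14 were called and 2 at an unadjusted p under 0.05, and the leading genes were Mpc2, a subunit of the pyruvate carrier, at 0.21 ± 0.05 (limma, adjusted p = 0.241), Pklr at -0.56 ± 0.16 (adjusted p = 0.251) and Gpt at -0.47 ± 0.19 (adjusted p = 0.358). All 14 were called between the tissues, 8 higher and 6 lower in liver, led by the transaminase Gpt2 at 8.33 ± 0.30 and the lactate dehydrogenase subunit Ldhb at -7.77 ± 0.12, with the monocarboxylate transporter Slc16a1 at 4.79 and Gpt at 4.26 in control rats. Under median centring 12 of 14 were called in control rats and 13 in TCE rats.

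**Figure D5:**
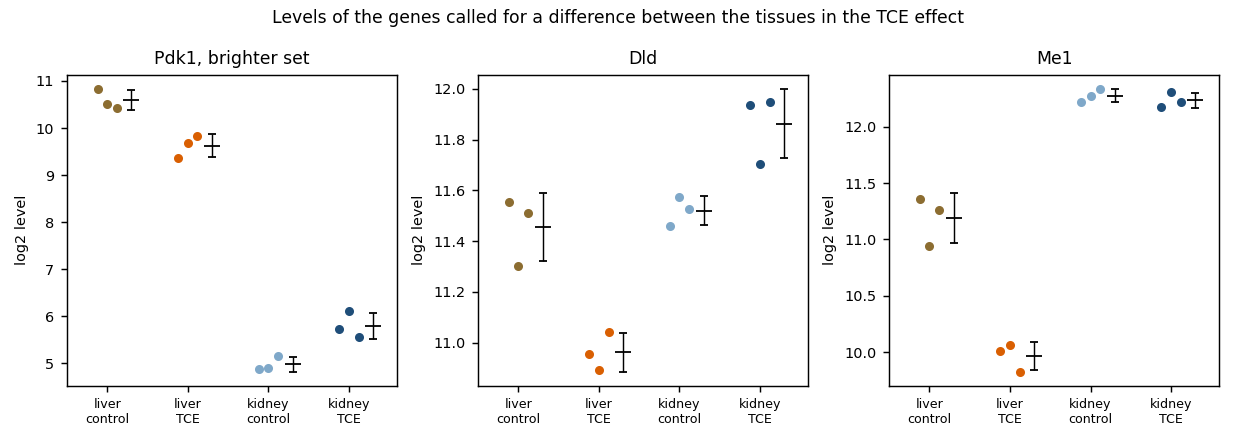
Levels (vertical axes, log2 intensity, a separate range in each panel) of the brighter Pdk1 set and of Dld and Me1. These are the genes named above as called, by their brightest probe set, for a difference between the tissues in the TCE effect. Points are arrays and bars give the mean ± SD (n = 3); TCE livers are lower than control livers in all 3 panels, and TCE kidneys are higher than control kidneys for Pdk1 and Dld.

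Genes listed as regulators of the kinases gave no call by treatment. In liver 0 of 13 tested were called and 3 passed at an unadjusted p under 0.05, led by the nuclear receptor Ppard at -0.88 ± 0.21 (limma, adjusted p = 0.218), which measured 7.56, 7.21 and 6.98 in control livers and 6.45, 6.59 and 6.06 in TCE livers. Hnf4a gave 0.40 ± 0.12 (limma, adjusted p = 0.274) but -0.41 and -0.45 in its other probe sets, and Srebf1, the lipogenic factor induced by insulin, 0.28 ± 0.09 (adjusted p = 0.285) but -0.19 in its other set. In kidney 0 of 12 were called and 3 passed unadjusted: Foxo1, the forkhead factor restrained by insulin, at -0.35 ± 0.08 (limma, adjusted p = 0.213), the glucocorticoid receptor Nr3c1 at 0.17 ± 0.06 and Ppargc1b at -0.40 ± 0.15.

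Between the tissues 11 of 13 regulators were called in control rats, 5 higher and 6 lower in liver, and 9 were under median centring. Ppargc1a, a coactivator of fasting genes, was lower in liver at -4.82 ± 0.94 (limma, adjusted p = 0.00631), with uneven control livers at 6.99, 3.24 and 5.61 and kidneys at 10.34, 9.93 and 10.01. Srebf1 was higher at 3.66 ± 0.11, Ppargc1b lower at -2.27 ± 0.13 and Nr3c1 higher at 1.55 ± 0.16. In TCE livers Ppargc1a measured 3.62, 3.21 and 3.39, overlapping with the control livers. Its other probe sets gave -0.46 and -0.61 for TCE minus control in liver. The part of Ppargc1a in the Pdk4 differences was not tested.

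Other genes of fasting and of PPAR-alpha, which share Pdk4's known inducers, did not move as a list. Of 15 listed, 13 were on the array under 1 name. In liver 0 of 13 tested were called and 0 passed even at an unadjusted p under 0.05 (limma), with 7 higher, 6 lower and a median of 0.01. These counts take the brightest set of each gene. The second sets tested in liver gave -1.10 for Cpt1a, -0.03 for Plin2 and 0.24 for Acaa2. Angptl4, a lipase inhibitor induced by fasting, had the smallest p and measured 11.74, 11.92 and 9.97 in control livers against 9.79, 10.40 and 9.25 in TCE livers, a difference of -1.40 ± 0.62 (limma, adjusted p = 0.402). Plin2 followed at -0.28 ± 0.17 and Vnn1 at 0.24 ± 0.27. Unlike Pdk4, Angptl4 had overlapping liver groups.

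In kidney 0 of 12 of these genes were called and 1 passed at an unadjusted p under 0.05, the lipid droplet gene Plin2 at -0.30 ± 0.12 (limma, adjusted p = 0.335). Angptl4 measured 5.06, 5.50 and 2.77 in control kidneys and 3.00, 2.77 and 2.77 in TCE kidneys, a difference of -1.60 ± 0.74 (adjusted p = 0.398). Control kidney 3 was the low control array for Angptl4, for the brighter Pdk4 set and for the hepatocyte markers. Among the TCE kidneys, kidney 1 had the highest hepatocyte marker sum and kidney 3 the highest value of the brighter Pdk4 set. The part of hepatocyte RNA in the kidney differences was not tested. Between the tissues 7 of 13 were called in control rats, led by Fabp1 at 12.19 ± 0.93 and Acot1 at -9.30 ± 0.17, with Angptl4 at 6.76 and Plin2 at 2.84, and 12 were called under median centring.

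Dbp, a clock output factor, had the smallest adjusted p of the liver comparison, which it shared with an unnamed probe set of smaller p. It differed by 3.71 ± 0.29 in liver (limma, adjusted p = 0.0802) and by 1.56 ± 0.11 in kidney (adjusted p = 0.158). Its liver effect minus its kidney effect was 2.14 ± 0.32 (adjusted p = 0.0189), larger in size than that of the brighter Pdk1 set. Among the member sets, the dimmer Pdk4 set had the liver difference nearest to it in size, at -2.28.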

How the data were processed

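The values analysed were log2 intensities deposited by the authors, 31099 probe sets on 12 arrays. The submitters' processing notes name affy and limma, with versions not given in the sources used here; how background, normalization and probe set summary were done is not given either. Names came from the platform annotation, which gave 1 symbol to 20826 probe sets, several to 436 and no symbol to 9780. The 57 controls of the array were not tested.

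Differences were fitted with limma 3.58.1 in R 4.3.3 (lmFit, eBayes, two-sided) for 5 comparisons: TCE against control in each tissue, the difference of these effects over all 12 arrays, and liver against kidney in control and in TCE rats. Probe sets with a mean above the 40th percentile were tested, 18625 in each, with Benjamini-Hochberg adjustment and calls at an adjusted p under 0.05; 10 of the 11 member sets passed this filter in liver. The scripts were tested on simulated data. The labels do not say which liver and kidney came from the same rat. The main fits took all arrays as independent. The SEs and p-values of comparisons across tissues therefore leave out that both tissues came from the same rats. With 3 arrays per group precision is limited, and p-values measure the spread between 3 rats.

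The 6 member genes, the 5 pathway lists and the 9 marker lists were chosen with earlier results of these data known. All member probe sets are described; all genes of the complex and branched-chain lists are named, and of the other lists the genes called in a comparison (at most 4, by size) or, with none called, the 3 with the smallest p. The 2 members with the widest range of group means have their 4 nearest profiles named. A list takes 1 probe set per gene, the brightest. Alternatives tried were other filters, scalings, variance models, a replicate block, the Gapdh gap as covariate, all 12 arrays in 1 fit, 1 probe set or the mean per gene, a threshold of 0.1 and each array left out; the same for Dld and Me1, and the scaling of the list genes, were added after seeing the data.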

Additional observations from a re-analysis of the deposited data

Results flagged for a closer look

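The TCE effect on the brighter Pdk1 probe set differed between the tissues by -1.79 log2 units (liver effect minus kidney effect, SE 0.25, limma over all 12 arrays). All 3 TCE livers were below all 3 control livers and all 3 TCE kidneys above all 3 control kidneys. The gene was picked with this contrast known, so its value is a description. The dimmer Pdk1 set gave -0.81 ± 0.24, with overlapping kidney groups.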

How the results depend on the processing

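Of 54 differences of member probe sets, 40 kept their sign in every alternative run, and none that was called reversed. Members called in liver numbered 3 when all 12 arrays were fitted together (0 in the 6 liver arrays alone), the brighter Pdk1 and the dimmer Pdk2 and Pdk4 sets. For the difference between the tissues in the TCE effect, 1 member was called, 2 with trend and robust variances, 2 with array weights, 2 at a threshold of 0.1, 0 with the replicate block, 0 with the Gapdh gap as covariate, and 0 to 1 with single arrays left out. Over all probe sets 198 were called, 291 with trend and robust variances, 448 with array weights and 699 at a threshold of 0.1. Between the tissues, 9 members were called in control rats (7 to 9 with single arrays left out) and 10 in TCE rats (9 to 10); taking 1 probe set per gene, or the mean of a gene's sets, gave 5 of 6 genes in each. Over all probe sets, single arrays left out gave 10254 to 11091 calls in control rats and 10115 to 10777 in TCE rats. Over all genes, 1 probe set per gene gave 7309 and 7194 calls, and the mean of a gene's sets 7141 and 7103. Using every singly named probe set of a list, 2 of 5 sets of the complex and 2 of 20 of the supply list were called for the difference of effects. For the difference of effects, the block joined TCE and control arrays of the same number within a tissue, which came from different rats. It did not pair liver with kidney. With 3 arrays in every group such a block can change the error of a difference and not its size. The brighter Pdk1 set therefore stayed at -1.79 with the block by design. With the covariate it was at -1.77, and it was called in neither. Same-numbered liver and kidney arrays correlated in their deviations at r between 0.0121 and 0.0845, below 0.1, and 5 of 6 livers matched their own number best, a hint from the data and not from the design. With the block within tissues Dld (-0.84, limma, adjusted p = 0.133) and Me1 (-1.18, adjusted p = 0.129) were not called. Their sizes could not change there either. With the covariate Me1 was at -1.53 (limma, adjusted p = 0.716). The cause of these changes was not tested. Over all probe sets, calls in liver went from 0 to 339 with all 12 arrays in 1 fit, 21 with no filter and 37 at a threshold of 0.1, in kidney from 0 to 26, 5 and 1, and for the difference of effects from 198 to 448 with array weights, 0 with the block or the covariate, and 40 to 410 with single arrays left out. Near the lowest value of the table, as for Pdk3 in liver and the dimmer Pdk4 set in kidney, differences cannot be followed.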
